A study of Mus musculus with 18 samples.

Results

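The frontal cortex of mice treated with MPTP was compared with that of mice given saline, on 3 arrays per treatment, 6 of the 18 arrays in the series. The arrays were chosen by their titles, and every gene named by a single-gene probe set was considered, each gene being read from its brightest probe set (by the mean of all 18 arrays). The MPTP group consisted of C57BL/6J males, 14 weeks old, that received 30 mg/kg MPTP intraperitoneally once a day for 5 days and were killed 4 days after the last dose. The saline group had the same strain, sex and age and received intraperitoneal saline. The remaining 12 arrays held striatum and midbrain under the same treatments. The titles call the arrays biological replicates and the protocol gives 3 animals per treatment, so the arrays of the 3 regions may come from the same animals, which the labels do not state. All p-values measure the spread between these arrays.

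MPTP enters the brain, where monoamine oxidase B, largely in astrocytes, turns it into MPP+. The dopamine transporter carries MPP+ into dopaminergic neurons, and there it inhibits complex I of the respiratory chain. The main projection damaged in mice runs to the striatum. The frontal cortex receives a sparser dopaminergic innervation from the ventral tegmental area, together with noradrenergic and serotonergic fibres.

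The saline arrays carried the profile of cortical tissue. All 28 measured markers of cortical glutamatergic neurons reached the value used to set aside dim genes, 5.1953 on the log2 scale. Of these, 17 were higher in saline cortex than in saline striatum and 5 lower (limma, adjusted p under 0.05), and 23 were higher than in saline midbrain and 2 lower. All 18 markers of striatal spiny neurons were lower in saline cortex than in saline striatum, with a median difference of -4.05. Of 10 markers of midbrain dopaminergic neurons, 2 reached the dim-gene value in saline cortex. The 25 measured myelin genes were all lower in cortex than in either other region. The 6 cortical arrays correlated at 0.993 to 0.997 over all probe sets. Saline replicate 2 stood apart from the rest. Its interquartile range was 3.38 against 3.56 to 3.65 on the other cortical arrays, and it was the lowest of the 6 for 5354 of 11710 genes.

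MPTP left few differences in frontal cortex that passed the threshold. Of 11710 genes tested, limma with Benjamini-Hochberg adjustment placed 8 past an adjusted p of 0.05, or 0.0683%, against 2.11% in striatum and 2.54% in midbrain. The 6 genes that rose encode a lipid flippase (Atp8a1), a kinase subunit (Csnk2a1), a nuclear non-coding RNA (Malat1), a coactivator of mitochondrial biogenesis (Ppargc1a), an actin regulator (Wipf3) and a GABA-B receptor subunit (Kctd8). The 2 that fell encode an organic cation exporter (Slc47a1) and butyrylcholinesterase (Bche). The rises ran from 1.44-fold to 1.65-fold, and the falls were 1.66-fold and 1.87-fold. For each of the 8 genes the MPTP arrays did not overlap the saline arrays. Their selection by p on these same arrays makes that likely, so it adds no support. Of all tested genes 10.1% were higher and 3.12% lower without overlap.

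**Figure D1:**
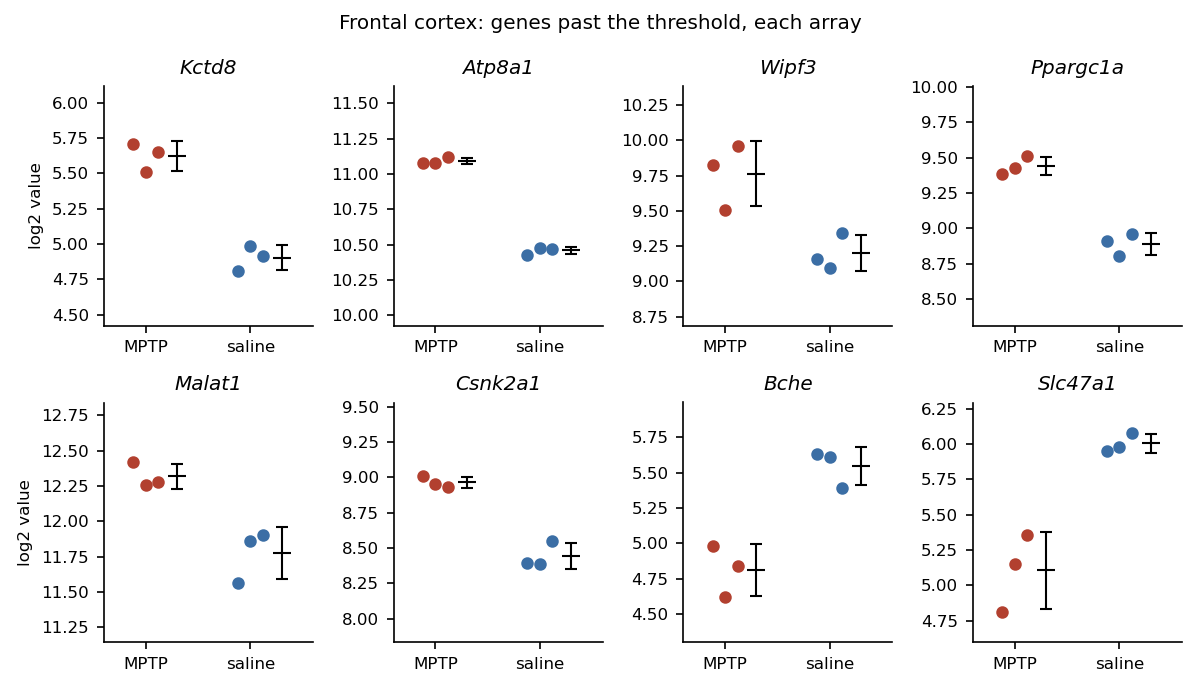
Log2 values of the 8 genes past the threshold in frontal cortex, with MPTP arrays on the left and saline arrays on the right of each panel (points: arrays, bars: mean and SD of 3 arrays). The vertical axes span the same range but start at different values. No MPTP array overlaps a saline array in any panel, the genes having been selected by p on these arrays. The scatter of Slc47a1 in MPTP cortex is the widest shown.

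Atp8a1, a P4-ATPase that moves phosphatidylserine to the inner leaflet of membranes, had the smallest p. Its log2 values were 11.08, 11.08 and 11.12 in MPTP cortex, against 10.43, 10.48 and 10.47 in saline cortex. The arrays of each group lay within 0.05 of one another, far closer than the difference of 0.63 (SE 0.10, limma adjusted p = 0.0381). Csnk2a1, the catalytic alpha subunit of casein kinase 2, stood at 9.01, 8.96 and 8.93 in MPTP cortex, against 8.39, 8.39 and 8.55 in saline cortex. Saline replicate 3 was the highest of its group and still below every MPTP array, and the difference was 0.52 (SE 0.09, limma adjusted p = 0.0381).

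Malat1, an abundant long non-coding RNA of nuclear speckles, was among the brightest genes, at 12.42, 12.25 and 12.28 in MPTP cortex, against 11.56, 11.86 and 11.90 in saline cortex. Saline replicate 1 was the lowest array, and the difference of 0.54 (SE 0.10, limma adjusted p = 0.0472) was 0.44 without it. Ppargc1a encodes PGC-1alpha, which drives genes of mitochondrial biogenesis. Its values were 9.38, 9.43 and 9.51 in MPTP cortex, against 8.91, 8.80 and 8.96 in saline cortex, a difference of 0.55 (SE 0.10, limma adjusted p = 0.0472). The spread within either group was small beside that difference.

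Wipf3, a WASP-interacting protein that acts on the actin cytoskeleton, measured 9.83, 9.51 and 9.96 in MPTP cortex, against 9.16, 9.10 and 9.34 in saline cortex. MPTP replicate 2 was the lowest of its group, and the difference was 0.56 (SE 0.11, limma adjusted p = 0.0472). Kctd8, an auxiliary subunit of GABA-B receptors, was dim, with 5.71, 5.51 and 5.65 in MPTP cortex, against 4.81, 4.98 and 4.92 in saline cortex. All its saline values lay below the dim-gene value, where signal over background is uncertain, and its fitted difference of 0.72 (SE 0.14, limma adjusted p = 0.0473) was 0.43 when measured from that value. The linear rises were 1.65-fold for Kctd8, 1.55-fold for Atp8a1, 1.48-fold for Wipf3, 1.46-fold for both Ppargc1a and Malat1 and 1.44-fold for Csnk2a1.

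Atp8a1, Kctd8 and Ppargc1a all lie on chromosome 5, and their promoters are shown because these are 3 of the 6 rises and share a chromosome. The sequences, from RefSeq on the build GRCm38.p6, run 5′ to 3′ on the minus strand, 250 bases before to 50 after the annotated start, and capitals mark the GC boxes (as GGGCGG or, on the other strand, CCGCCC) and the cAMP response element. The promoter of Atp8a1 lies at chr5:67847382-67847681, that of Kctd8 at chr5:69341660-69341959 and that of Ppargc1a at chr5:51567676-51567975.
Atp8a1: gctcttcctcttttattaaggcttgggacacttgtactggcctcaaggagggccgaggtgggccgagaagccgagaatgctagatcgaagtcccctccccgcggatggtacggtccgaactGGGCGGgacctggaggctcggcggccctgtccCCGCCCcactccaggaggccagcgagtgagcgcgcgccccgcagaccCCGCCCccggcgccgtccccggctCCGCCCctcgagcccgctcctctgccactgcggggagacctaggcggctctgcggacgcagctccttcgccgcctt
Kctd8: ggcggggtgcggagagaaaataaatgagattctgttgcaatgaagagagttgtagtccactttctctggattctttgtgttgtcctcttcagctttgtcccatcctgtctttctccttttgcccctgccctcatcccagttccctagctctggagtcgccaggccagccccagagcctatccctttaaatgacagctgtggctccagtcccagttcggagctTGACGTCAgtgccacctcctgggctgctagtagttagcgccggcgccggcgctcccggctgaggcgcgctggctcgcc
Ppargc1a: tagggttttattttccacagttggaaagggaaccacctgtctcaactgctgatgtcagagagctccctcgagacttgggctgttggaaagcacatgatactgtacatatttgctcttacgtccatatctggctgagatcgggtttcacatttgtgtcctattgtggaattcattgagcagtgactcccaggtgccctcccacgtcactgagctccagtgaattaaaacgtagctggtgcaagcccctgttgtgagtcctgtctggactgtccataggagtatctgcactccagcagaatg
Both strands were searched for the cAMP response element TGACGTCA, the GC box GGGCGG, the E-box CACGTG and TATAAA, with no overlap between the matches shown. The Atp8a1 promoter holds 4 GC boxes, a motif found in 35.7% of 32851 promoters of this length. The Kctd8 promoter holds 1 cAMP response element, which begins 28 bases before the start and occurs in 1.79% of promoters. None of the 4 motifs is in the Ppargc1a window, and E-boxes and TATAAA occur in 7.15% and 13.6% of all promoters. Promoters of 7 of the 8 genes were found in RefSeq, with Slc47a1 the exception. Atp8a1 and Kctd8 are near neighbours, with 4 protein-coding genes counted from the first to the last of them, and the genes between them were not among those tested.

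The falls were both in dim genes. Slc47a1 encodes MATE1, an exporter of organic cations, MPP+ among them. Its log2 values were 4.81, 5.15 and 5.35 in MPTP cortex, against 5.95, 5.98 and 6.08 in saline cortex. The saline arrays agreed within 0.13, while the MPTP arrays spread over 0.54 and replicates 1 and 2 lay under the dim-gene value. The difference was -0.90 (SE 0.16, limma adjusted p = 0.0398), or 1.87-fold lower. Bche, the esterase of plasma, liver and glia that splits choline esters, gave 4.98, 4.62 and 4.84 in MPTP cortex, against 5.64, 5.61 and 5.40 in saline cortex. All 3 MPTP values of Bche were below the dim-gene value. The difference of -0.74 (SE 0.14, limma adjusted p = 0.0492) was 1.66-fold lower as fitted and 0.35 on the log2 scale when measured from the dim-gene value.

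Just outside the threshold stood Dnajb14, a J-domain co-chaperone of the endoplasmic reticulum membrane, and Map1b, a microtubule-associated protein of growing axons. Dnajb14 measured 8.91, 8.67 and 8.65 in MPTP cortex, against 8.28, 8.17 and 8.25 in saline cortex, a difference of 0.51 (SE 0.10, limma adjusted p = 0.0679). Map1b measured 9.87, 9.69 and 9.79 in MPTP cortex, against 9.12, 9.18 and 9.33 in saline cortex, a difference of 0.57 (SE 0.12, limma adjusted p = 0.0797). Neither gene's groups overlapped, and neither passed. The other bright probe sets gave less, 0.10 for Dnajb14 and 0.05 and 0.05 for Map1b.

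The other probe sets of a gene read other stretches of its transcripts, and they did not all show the same difference. The 6 other probe sets of Atp8a1 gave 0.41, 0.06, 0.04, 0.02, -0.02 and -0.10. The one at 0.41 was close to the dim-gene value, with a cortical mean of 5.23, and 4 others had means of 9.35 to 10.28. Only 1 of the 6, at 0.41, had an unadjusted p under 0.05 (limma, 0.0148). For Malat1, 3 further probe sets gave 0.80, 0.73 and 0.65 (unadjusted p of 7.01e-07, 2.86e-06 and 5.94e-06), while 3 others gave 0.06, 0.05 and -0.07. The other probe sets of Ppargc1a gave 0.19, 0.18, 0.12 and -0.02, and none had an unadjusted p under 0.05. The bright ones of Csnk2a1 gave 0.18 to 0.22. Wipf3 and Slc47a1 had no other probe set, and the others of Kctd8 (-0.03) and Bche (-0.23 and -0.14) were dim. In all, 19 of 24 other probe sets had the sign of the chosen one, and 15 of the 19 at or above the dim-gene value did. With the mean over all probe sets of a gene in place of the brightest, Slc47a1 alone of the 8 passed, and the difference of Atp8a1 was 0.15, that of Ppargc1a 0.20, that of Csnk2a1 0.25 and that of Malat1 0.39.

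**Figure D2:**
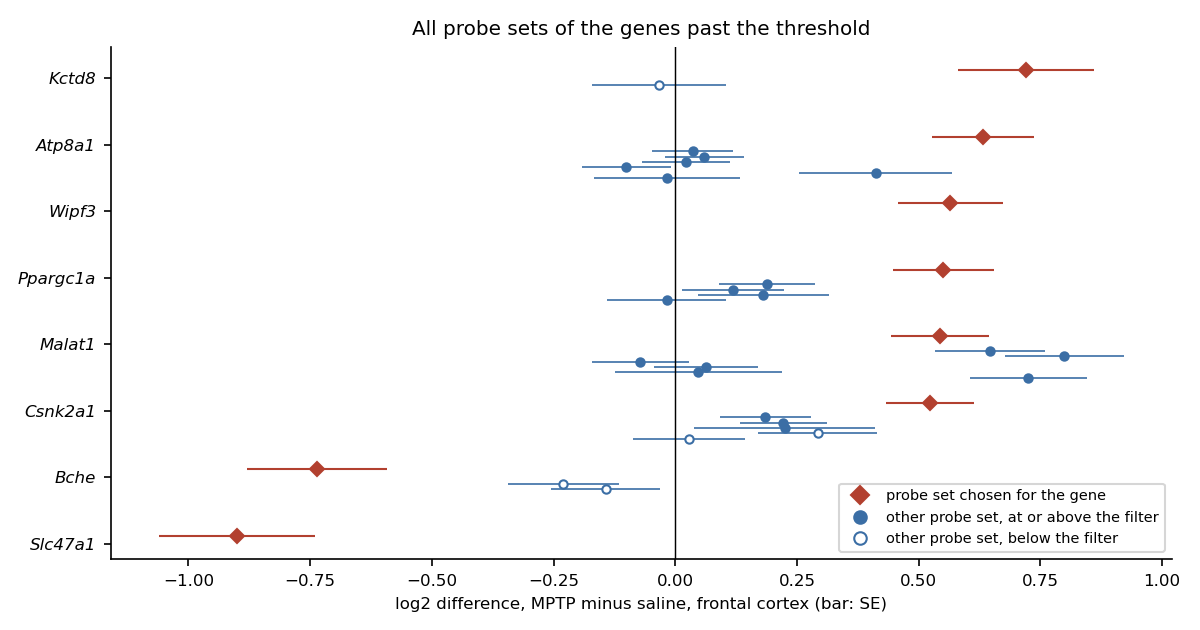
Log2 difference, MPTP minus saline in frontal cortex, for every probe set of the 8 genes past the threshold (diamond: the probe set that stands for the gene, filled circle: another at or above the dim-gene value, open circle: another below it, bars: SE). Of the other probe sets, 3 of Malat1 lie at 0.65 or higher, whereas 5 of the 6 of Atp8a1 lie between -0.10 and 0.06.

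The calls also rested on all 6 arrays. Without MPTP replicate 1, MPTP replicate 3 or any of the 3 saline replicates no gene passed, and without MPTP replicate 2 only Wipf3 did (adjusted p = 0.0194). The differences themselves moved little, those of Atp8a1 between 0.62 and 0.64 and those of Slc47a1 between -1.02 and -0.75. At an unadjusted p under 0.05 stood 719 genes, where 585.5 would come by chance, and 580 of them were higher (4.95% of those tested) and 139 lower (1.19%). The split between higher and lower differed between settings. It was 520 to 169 with arrays centred on their medians, 727 to 302 with array weights, 494 to 432 after quantile normalization a second time, 404 to 395 with the interquartile range as a covariate, and 215 to 172 without saline replicate 2. The groups did not overlap for 1188 higher genes (10.1%) and 365 lower genes (3.12%). The median difference over all tested genes was 0.04, and it was -0.0032 after the second quantile normalization.

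Genes expressed by microglia, the resident macrophages of the brain, were mostly higher. Of 26 measured members of the list 23 were higher in MPTP cortex and 3 lower, with a median difference of 0.16. Over all tested genes 64.1% were higher and 35.8% lower, and 4.95% were higher and 1.19% lower at an unadjusted p under 0.05. The counts of this list and of those below are to be read against these shares. None passed the adjusted threshold, and 8 had an unadjusted p under 0.05, all of them higher. In bulk tissue more cells of a type and more RNA per cell cannot be told apart. The Fc receptor gene Fcgr3 differed by 0.54 (unadjusted p = 0.0102), the complement genes C1qb and C1qa by 0.40 (unadjusted p = 0.0218) and 0.35 (unadjusted p = 0.00864), and Ly86, a partner of the toll-like receptor homologue RP105, by 0.39 (unadjusted p = 0.0173). In each of these 4 genes MPTP replicate 3 was the highest array and replicate 2 the lowest of its group. C1qb measured 9.29, 8.74 and 9.33 in MPTP cortex, against 8.75, 8.65 and 8.76 in saline cortex, and MPTP replicate 2 lay within the saline range. C1qa, at 9.12, 8.82 and 9.26 in MPTP cortex, against 8.69, 8.71 and 8.73 in saline cortex, did not overlap. The mean log2 value of the list was 7.66, 7.52 and 7.78 on the MPTP arrays, against 7.51, 7.42 and 7.48 on the saline arrays. The count at an unadjusted p under 0.05 was 11 without MPTP replicate 2, 4 without MPTP replicate 1, 1 without MPTP replicate 3 and 5 without saline replicate 3.

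**Figure D3:**
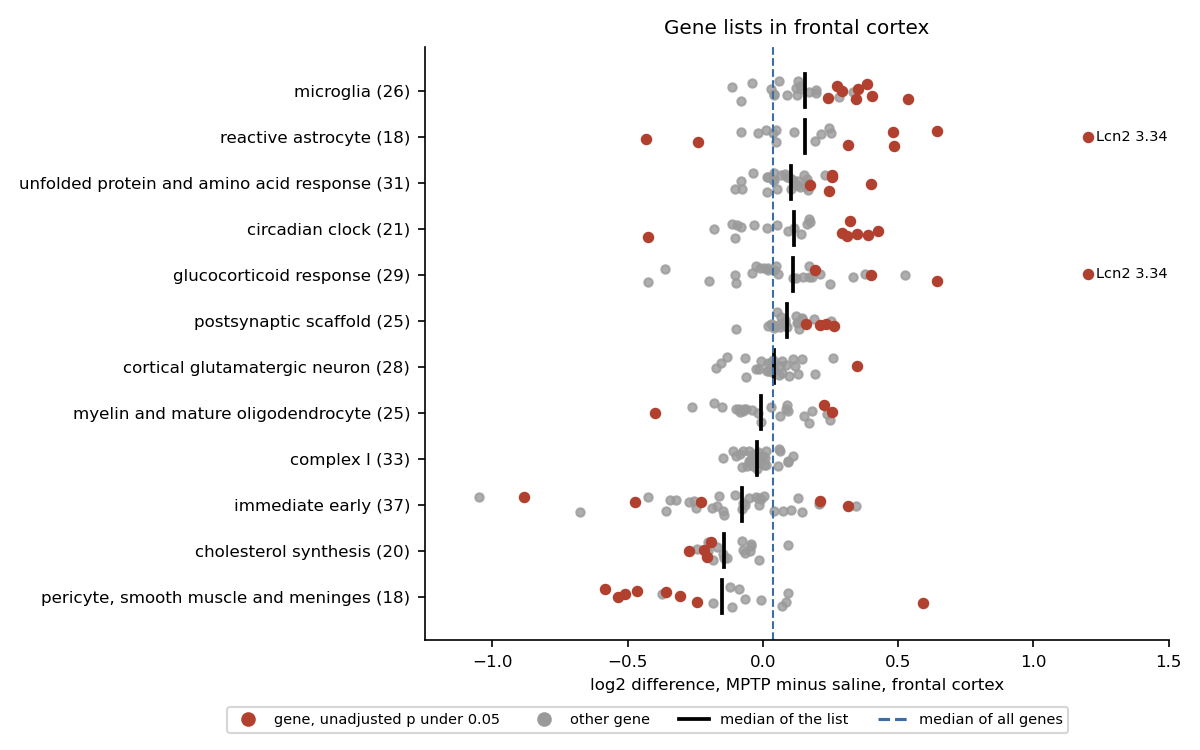
Log2 difference, MPTP minus saline in frontal cortex, of the measured members of 12 gene lists (points: genes, with the number measured in brackets, black bars: medians of the lists, dashed line: median of all genes tested, 0.04). Red points have an unadjusted p under 0.05, and Lcn2, at 3.34, is drawn off its place at the right with its value. The microglial median lies at 0.16, those of cholesterol synthesis and of pericytes, smooth muscle and meninges at -0.15.

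Markers of reactive astrocytes held the gene with the largest cortical difference of all those tested, Lcn2. Of 18 measured members 14 were higher, and 5 of them and 2 lower genes had an unadjusted p under 0.05, with a median of 0.15. The 5 became 2 without MPTP replicate 3, and 3 without MPTP replicate 1, saline replicate 2 or saline replicate 3. Gfap, the intermediate filament protein that defines reactive astrocytes, stood at 8.10, 7.71 and 8.09 in MPTP cortex, against 7.78, 7.50 and 7.67 in saline cortex. The difference was 0.32 (unadjusted p = 0.0411) and MPTP replicate 2 overlapped saline replicate 1. The 2 other probe sets of Gfap gave 0.20 and 0.29. Fkbp5, a glucocorticoid-induced co-chaperone of steroid receptors that also stands in this list, measured 8.06, 7.60 and 8.04 in MPTP cortex, against 7.15, 7.10 and 7.52 in saline cortex. Its groups did not overlap, and the difference was 0.65 (SE 0.14, limma adjusted p = 0.107), with 0.45 from a second bright probe set. Osmr, the oncostatin M receptor, and Cd14, the lipopolysaccharide co-receptor, differed by 0.48 (unadjusted p = 0.0471) and 0.48 (unadjusted p = 0.0206), with all saline values of both below the dim-gene value, and for Osmr 2 of the 3 MPTP values too. Without MPTP replicate 3 the difference of Osmr was 0.25. That of Cd14 was 0.25 without MPTP replicate 1 and 0.76 without MPTP replicate 2. The general astrocyte list showed little on the chosen probe sets, with 13 of 19 members higher, 1 at an unadjusted p under 0.05 and a median of 0.05. With the mean over all probe sets of a gene, 3 members were higher at that level and the median was 0.08. Its member Slc1a2 differed by 0.14 on the chosen probe set. The other probe sets of Slc1a2 gave 0.745, 0.53, 0.24 and -0.08 (limma, unadjusted p of 9.39e-06, 0.00329, 0.0176 and 0.682).

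Lcn2, the iron-binding acute-phase protein lipocalin 2, split the MPTP arrays. Its values were 8.18, 4.46 and 8.19 in MPTP cortex, against 3.68, 3.65 and 3.48 in saline cortex. MPTP replicates 1 and 3 stood far above replicate 2, which lay below the dim-gene value, as did all saline arrays. The fitted difference of 3.34 (SE 0.89, limma adjusted p = 0.289) is a mean over these unlike arrays. The MPTP mean, with replicate 2 kept at its own value, lay 1.75 above the dim-gene value, which is only approximate. The same replicate number was low in the other regions, with 7.59, 4.11 and 7.71 in MPTP striatum and 8.49, 4.78 and 8.66 in MPTP midbrain. Vwf, the endothelial von Willebrand factor gene, behaved likewise at 7.82, 6.91 and 7.54 in MPTP cortex, against 6.69, 6.42 and 6.34 in saline cortex, a difference of 0.94 (unadjusted p = 0.000529) with no overlap. MPTP replicate 2 was again the lowest of its group in striatum (7.73, 6.57 and 7.32) and midbrain (7.75, 7.25 and 7.67). Lrg1, an acute-phase glycoprotein gene chosen after its values were seen, stood at 5.85, 5.29 and 6.73 in MPTP cortex, against 4.49, 5.02 and 4.92 in saline cortex.

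A second MPTP array stood apart for genes that neuronal activity induces. Arc, a regulator of synaptic strength, measured 6.13, 8.83 and 9.48 in MPTP cortex, against 8.59, 9.27 and 9.72 in saline cortex, and the transcription factor Fos 7.19, 8.69 and 9.22 in MPTP cortex, against 9.04, 8.90 and 9.19 in saline cortex. MPTP replicate 1 was far below every other cortical array for both, and the other MPTP arrays overlapped the saline arrays. It was also the lowest array in striatum, where Arc stood at 6.29, 8.14 and 8.17 in MPTP mice and 8.47, 9.01 and 8.95 in saline mice, and the lowest in midbrain for Fos, at 7.41, 8.56 and 8.89 in MPTP mice and 8.54, 8.82 and 9.35 in saline mice. Egr2 and Egr4, zinc finger factors of the same response, differed by -0.88 (unadjusted p = 0.0238) and -0.47 (unadjusted p = 0.0203), and without MPTP replicate 1 by -0.29 and -0.29. Of 37 immediate early genes 26 were lower and 11 higher, with a median of -0.08, and 3 lower and 2 higher genes had an unadjusted p under 0.05. Without MPTP replicate 1 the median was 0.11 with 5 higher and 0 lower, and without MPTP replicate 3 it was -0.26 with 0 higher and 10 lower. The sign of the median therefore changed with the MPTP array left out, and it was 0.00 without saline replicate 3. No gene of the list passed the adjusted threshold.

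**Figure D4:**
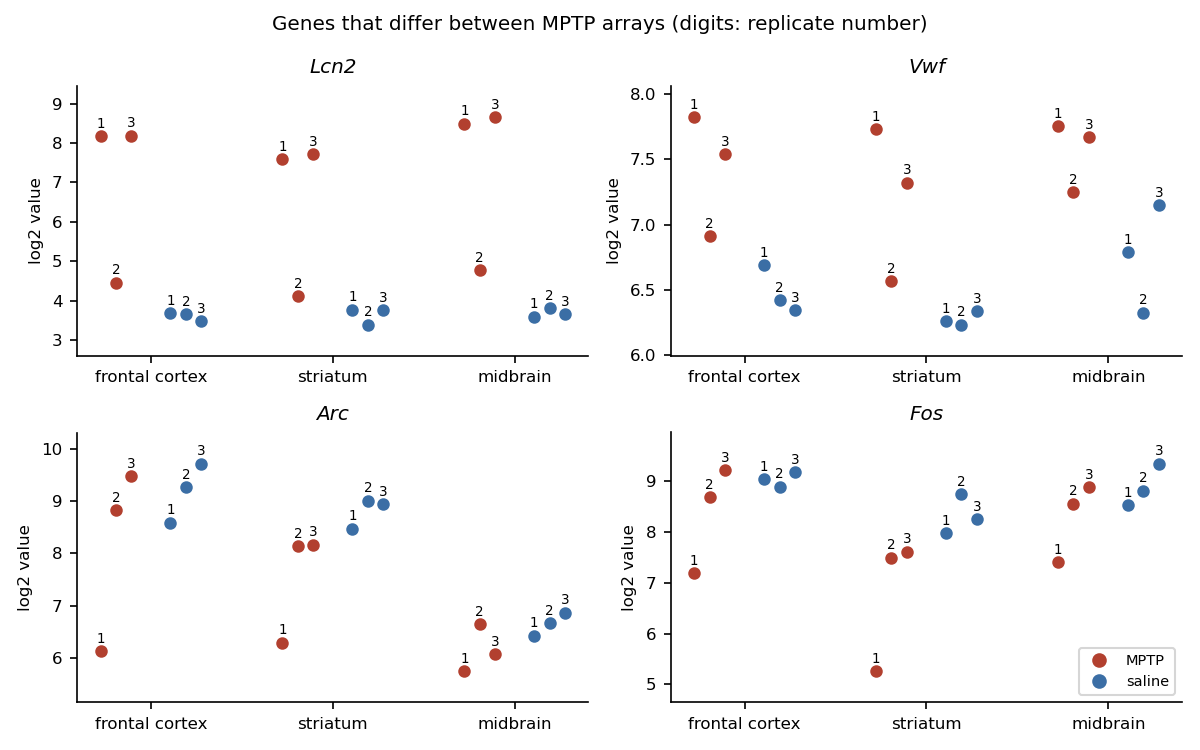
Log2 values of Lcn2, Vwf, Arc and Fos on all 18 arrays by region, with MPTP arrays left of saline arrays and replicate numbers above the points. In each region MPTP replicate 2 is the lowest MPTP array for Lcn2 and Vwf, and MPTP replicate 1 the lowest for Arc and Fos.

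Genes of vessel wall and meninges were mostly lower. Of 18 measured markers of pericytes, smooth muscle and meninges 14 were lower in MPTP cortex, and 7 of these had an unadjusted p under 0.05 against 1 higher gene, with a list median of -0.15. Col3a1, a fibrillar collagen of fibroblasts, stood at 5.18, 5.11 and 4.86 in MPTP cortex, against 5.49, 5.68 and 5.73 in saline cortex, a difference of -0.58 (unadjusted p = 0.00105), with all MPTP values under the dim-gene value. Slc6a13, the GABA transporter GAT2 of meninges, measured 6.47, 6.14 and 6.56 in MPTP cortex, against 6.88, 7.01 and 6.89 in saline cortex, a difference of -0.54 (unadjusted p = 0.00215). Fmod, the collagen-binding proteoglycan fibromodulin, gave 8.01, 7.40 and 7.87 in MPTP cortex, against 8.16, 8.46 and 8.19 in saline cortex, a difference of -0.51 (unadjusted p = 0.016). The groups did not overlap in any of these 3 genes. Igf2, made by meninges and choroid plexus in the adult brain, was also lower, with a difference of -0.24 (unadjusted p = 0.027). The exception was Abcc9, the SUR2 channel subunit of pericytes, at 6.92, 6.79 and 7.06 in MPTP cortex, against 6.48, 6.38 and 6.14 in saline cortex, a difference of 0.59 (SE 0.13, limma adjusted p = 0.107). The mean log2 value of the list was 7.28, 7.10 and 7.28 on the MPTP arrays, against 7.37, 7.41 and 7.39 on the saline arrays. The 2 genes past the threshold in the downward direction, Slc47a1 and Bche, ran the same way as this list, and the part of meningeal or vascular tissue in their falls was not tested. Without MPTP replicate 2 or saline replicate 2 the count of 7 lower members was 4.

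Endothelial genes were split. Of 18 measured members 12 were higher, close to the 64.1% of all tested genes, with a median of 0.10. At an unadjusted p under 0.05 stood 3 higher genes and 1 lower gene. Beside Vwf, the VEGF receptor Flt1 measured 7.52, 7.21 and 7.64 in MPTP cortex, against 7.20, 6.93 and 7.18 in saline cortex, a difference of 0.35 (unadjusted p = 0.00789), and the membrane protein Itm2a 8.86, 9.28 and 9.09 in MPTP cortex, against 9.41, 9.41 and 9.31 in saline cortex, a difference of -0.30 (unadjusted p = 0.00954). The count of 3 was 1 without MPTP replicate 3 and 2 without saline replicate 2. In striatum and midbrain 3 and 2 members of this list were called higher.

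Enzymes of cholesterol synthesis were lower almost throughout. Of 20 measured genes 19 were lower and 1 higher, and 4 lower genes had an unadjusted p under 0.05, with a median of -0.15. Hmgcs1, which makes the substrate of the pathway's rate-limiting reductase, stood at 11.16, 11.34 and 11.22 in MPTP cortex, against 11.49, 11.39 and 11.47 in saline cortex, a difference of -0.21 (unadjusted p = 0.0052). Cyp51, the lanosterol demethylase, and Idi1, an isomerase of isoprenoid units, differed by -0.27 (unadjusted p = 0.0257) and -0.22 (unadjusted p = 0.03), and Mvd, a mevalonate pathway decarboxylase, by -0.24 (unadjusted p = 0.102). None passed the adjusted threshold in cortex, whereas 1 gene of the list was called lower in striatum and 4 in midbrain, Hmgcs1 at -0.31 (adjusted p = 0.0166) and Mvd at -0.59 (adjusted p = 0.027) among the midbrain ones. The mean log2 value of the list was 8.15, 8.35 and 8.25 in MPTP cortex, against 8.39, 8.33 and 8.42 in saline cortex, so that MPTP replicate 2 overlapped the saline arrays. Counts at an unadjusted p under 0.05 ranged from 2, without MPTP replicate 1 or saline replicate 3, to 7 without MPTP replicate 2, and the count was 10 after the second quantile normalization.

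Genes that respond to glucocorticoids and to the clock were mostly higher, as were 7507 of all 11710 tested genes (64.1%). In the glucocorticoid list 21 of 29 were higher, with 4 at an unadjusted p under 0.05 and none lower, and a median of 0.11. Besides Fkbp5 and Lcn2, the metallothionein gene Mt2 measured 10.47, 10.00 and 10.29 in MPTP cortex, against 9.72, 9.90 and 9.94 in saline cortex, a difference of 0.40 (unadjusted p = 0.00528), with MPTP replicate 2 the lowest of its group. Plin4, a lipid droplet coat protein, differed by 0.53 (unadjusted p = 0.0879). All saline values and 1 MPTP value of Plin4 lay below the dim-gene value, and the MPTP mean, with that 1 value kept as it stood, lay 0.01 above it. The count of 4 was 8 without MPTP replicate 2. The circadian list had 14 of 21 genes higher, 6 of them and 1 lower gene at an unadjusted p under 0.05, and a median of 0.12. The transcriptional repressors Ciart and Nr1d1 differed by 0.43 (unadjusted p = 0.0146) and 0.39 (unadjusted p = 0.0208), and Rorb, a nuclear receptor that also marks layer 4 neurons, by 0.35 (unadjusted p = 0.017). The 2 other bright probe sets of Rorb gave -0.09 and -0.02. Csnk1d, the kinase that marks PER proteins for degradation, was lower at 10.20, 9.88 and 9.71 in MPTP cortex, against 10.21, 10.59 and 10.26 in saline cortex, a difference of -0.42 (unadjusted p = 0.0114) in which the groups met at MPTP replicate 1. Its other bright probe sets lay between -0.31 and 0.08. The 6 became 4 without MPTP replicate 2, MPTP replicate 3 or saline replicate 2. The hour at which tissue was taken is not given in the sources used here.

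Protein-folding and amino acid response genes were higher in 27 of 31 cases, against 64.1% of all tested genes, around a median of 0.10. An unadjusted p under 0.05 was reached by 5 of them and by none of the lower ones. Calr, the calcium-binding chaperone calreticulin, stood at 10.92, 10.85 and 10.98 in MPTP cortex, against 10.62, 10.64 and 10.73 in saline cortex, a difference of 0.26 (unadjusted p = 0.00526), and its 2 other probe sets gave 0.30 and 0.26. Chac1, which degrades glutathione, differed by 0.40 (unadjusted p = 0.00681), the stress sensor Atf6 by 0.26 (unadjusted p = 0.0249) and the mitochondrial folate enzyme Mthfd2 by 0.25 (unadjusted p = 0.0244). Without MPTP replicate 3 or saline replicate 2 the count of 5 was 2. In the antioxidant list 3 of 25 genes had an unadjusted p under 0.05, all higher, while 11 of 25 were higher. They were Gclm (0.38, unadjusted p = 0.000751) and Gclc (0.20, unadjusted p = 0.00953), the 2 subunits of the enzyme that starts glutathione synthesis, and the peroxidase Gpx1 (0.19, unadjusted p = 0.039). The groups of Gclm, at 8.71, 8.40 and 8.52 in MPTP cortex, against 8.19, 8.04 and 8.25 in saline cortex, did not overlap, and a second probe set gave 0.17. The other probe set of Gclc gave 0.05. No heat shock or proteasome gene, of 30 and 31 measured, had an unadjusted p under 0.05. After the second quantile normalization 1 heat shock gene was higher and 3 lower at that level, and 3 proteasome genes were lower.

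The rise of Ppargc1a was not accompanied by a broad difference in mitochondrial genes. Of 36 measured genes that act with PGC-1alpha or in mitochondrial biogenesis 27 were higher, with a median of 0.05. Over all tested genes 64.1% were higher, with a median of 0.04. Of the 36 genes 3 had an unadjusted p under 0.05, namely Ppargc1a itself, the mediator subunit Med1 (0.28, unadjusted p = 0.00669) and Gabpb1 (0.25, unadjusted p = 0.0285), a subunit of the nuclear respiratory factor NRF-2. Other bright probe sets gave 0.14 to 0.15 for Med1 and 0.01 for Gabpb1. None of 33 complex I subunits, the target of MPP+, had an unadjusted p under 0.05, and 22 of them were lower around a median of -0.02. The largest difference was in Ndufa6, at -0.15 (unadjusted p = 0.0524). Of 37 subunits of complexes II to V and 32 genes of glycolysis and the citric acid cycle none had an unadjusted p under 0.05 either. After the second quantile normalization 27 complex I genes were lower around a median of -0.06, and 4 of them, 2 of complexes II to V and 5 of glycolysis and the citric acid cycle were lower at that level. Among 9 measured P4-ATPases and partners, Atp8a2, the brain paralogue of Atp8a1, differed by 0.26 (unadjusted p = 0.0462), and the median of the list was 0.00. The other bright probe set of Atp8a2 gave 0.02. Of 18 long non-coding RNAs only Malat1 had an unadjusted p under 0.05, and Neat1, its neighbour on the chromosome and the scaffold of paraspeckles, differed by -0.17 (unadjusted p = 0.068).

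Neuronal genes gave small differences, against 64.1% of all tested genes higher. The cortical glutamatergic list had 20 of 28 members higher with a median of 0.04, the value over all genes, and only Rorb had an unadjusted p under 0.05. The vesicular glutamate transporter Slc17a7 differed by 0.19 (unadjusted p = 0.702), and the layer 6 factor Tbr1 by 0.26 (unadjusted p = 0.194). Among postsynaptic scaffold genes 24 of 25 were higher around a median of 0.09, and 4 had an unadjusted p under 0.05. The scaffold Dlg2, or PSD-93, stood at 9.56, 9.54 and 9.76 in MPTP cortex, against 9.40, 9.24 and 9.42 in saline cortex, a difference of 0.26 (unadjusted p = 0.0147). The adhesion molecule Nlgn1 (0.23, unadjusted p = 0.011) and Dlgap4 (0.21, unadjusted p = 0.0264) differed in the same direction, and the count of 4 became 1 without MPTP replicate 3 or saline replicate 2. Other bright probe sets gave 0.17 and -0.06 for Dlg2 and 0.20 for Dlgap4. Of 34 synaptic vesicle genes 1 had an unadjusted p under 0.05, Sv2a (0.16, unadjusted p = 0.0499), and of 35 potassium channel genes likewise 1, the fast-spiking channel Kcnc1 at 9.54, 9.29 and 9.33 in MPTP cortex, against 8.99, 8.98 and 9.03 in saline cortex, a difference of 0.39 (unadjusted p = 0.00498). Other probe sets of Kcnc1 gave 0.10, 0.03 and, below the dim-gene value, -0.11. Sodium and calcium channels (26 genes) and GABA and glycine receptors (14 genes) had none. Crh, the stress peptide of a set of cortical interneurons, measured 5.32, 6.19 and 5.57 in MPTP cortex, against 5.44, 4.94 and 4.87 in saline cortex, a difference of 0.61 (unadjusted p = 0.0202). Without MPTP replicate 2 the difference of Crh was 0.36.

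Chromatin regulators were mostly higher, whereas splicing genes were not higher more often than all tested genes, of which 64.1% were higher around a median of 0.04. The chromatin list had 27 of 33 genes higher, 4 at an unadjusted p under 0.05 and a median of 0.11, with Setd5 (0.30, unadjusted p = 0.0131), the histone methyltransferase Kmt2c (0.27, unadjusted p = 0.0146) and the demethylase Kdm7a (0.21, unadjusted p = 0.0264). Other bright probe sets gave 0.08 and -0.23 for Kdm7a, 0.29, 0.05 and 0.01 for Kmt2c and 0.19 for Setd5. Of 42 splicing and nuclear RNA-binding genes 25 were higher and 6 had an unadjusted p under 0.05, none lower, around a median of 0.02 that was -0.03 after the second quantile normalization. Hnrnpu, a nuclear matrix protein, stood at 11.15, 10.94 and 11.10 in MPTP cortex, against 10.51, 10.62 and 10.74 in saline cortex, a difference of 0.44 (unadjusted p = 0.00055) without overlap, while its 4 other bright probe sets lay between -0.15 and 0.17. Luc7l2, a U1 snRNP factor, differed by 0.28 (unadjusted p = 0.00265) in cortex and was called higher in striatum (0.54) and midbrain (0.52). Its other bright probe sets lay between -0.09 and 0.24 in cortex. Saline replicate 2 had the lowest mean of both lists, and without it the chromatin count was 1 higher and 1 lower and the splicing count 2 higher and 4 lower. Without MPTP replicate 3 they were 2 and 3 higher, without MPTP replicate 2 the chromatin count was 2, and without MPTP replicate 1 the splicing count was 3.

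Dopamine-related genes showed little. Drd1, the gene of the D1 dopamine receptor, stood at 5.84, 6.04 and 6.08 in MPTP cortex, against 5.99, 5.49 and 6.35 in saline cortex, a difference of 0.05 (unadjusted p = 0.822), and Maob, the enzyme that activates MPTP, at 7.90, 7.77 and 8.06 in MPTP cortex, against 8.02, 7.79 and 7.80 in saline cortex, a difference of 0.04 (unadjusted p = 0.748). The groups overlapped for both genes. Drd2 measured 4.61, 4.32 and 4.17 in MPTP cortex, against 5.08, 4.53 and 5.12 in saline cortex, a fitted difference of -0.55 (unadjusted p = 0.000633). All 6 values of Drd2 lay below the dim-gene value, so no level, fold or fall is read from them. Syndig1l, another gene of striatal spiny neurons, differed by -0.52 (unadjusted p = 0.00033) with its MPTP values and 2 saline values equally dim. Saline replicate 3 had the highest mean of the 18 striatal spiny neuron markers, at 7.26, against 6.94, 6.95 and 6.94 on the MPTP arrays and 7.01 and 6.83 on the other saline arrays, and the part of tissue boundaries in these differences was not tested. Among receptors for noradrenaline and serotonin, Htr1b, a release-inhibiting serotonin receptor, differed by 0.43 (unadjusted p = 0.00381) and the ionotropic receptor gene Htr3a by -0.32 (unadjusted p = 0.0332). The other probe set of Htr1b, with a cortical mean of 5.60, gave -0.10. None of 15 genes of inherited Parkinson's disease had an unadjusted p under 0.05.

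Myelin and interferon genes were split between higher and lower. Of 25 myelin genes 12 were higher and 13 lower, around a median of -0.0075 that was 0.10 without saline replicate 3. At an unadjusted p under 0.05 stood 2 higher genes and 1 lower gene. Without saline replicate 3 there were 7 higher and 1 lower, and without MPTP replicate 2 or 3 there were 4 higher. Without MPTP replicate 1 there were 0 higher and 2 lower around a median of -0.08, and without saline replicate 2 there were 0 higher and 3 lower. The higher ones on all 6 arrays were Hapln2 (0.25, unadjusted p = 0.0237), a link protein of the node of Ranvier, and the myelin transcription factor Myrf (0.23, unadjusted p = 0.0174). Opalin, an oligodendrocyte membrane glycoprotein, measured 7.56, 7.62 and 7.14 in MPTP cortex, against 7.79, 7.85 and 7.88 in saline cortex, a difference of -0.40 (unadjusted p = 0.0117), which was -0.25 without MPTP replicate 3, while it was called lower in midbrain at -0.74. Of 13 oligodendrocyte precursor genes 8 were higher, against 64.1% of all tested genes, around a median of 0.12, with Olig1 at 0.16 (unadjusted p = 0.0468). The interferon list had 9 of 17 genes higher around a median of 0.01 (-0.01 after the second quantile normalization), and Ifitm1, a membrane protein that blocks viral entry, stood at 6.86, 6.59 and 7.51 in MPTP cortex, against 6.47, 6.53 and 6.43 in saline cortex, a difference of 0.51 (unadjusted p = 0.00691) that was called in striatum (0.76) and midbrain (1.08).

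The cortical response was then set against that of the other regions by testing the difference of the differences. Between cortex and striatum 7 of 11710 genes passed (0.0598%), all with a smaller or opposite response in cortex, and 3 passed without MPTP cortex replicate 3 or MPTP striatum replicate 1. Rras2, a small GTPase, measured 6.55, 6.84 and 6.66 in MPTP cortex, against 6.46, 6.34 and 6.28 in saline cortex. In striatum it measured 6.80, 6.63 and 6.44 in MPTP mice, against 4.82, 5.00 and 4.68 in saline mice, where every value was below the dim-gene value. Its fitted difference was 0.32 in cortex and 1.79 in striatum, and cortex minus striatum was -1.47 (SE 0.19, limma adjusted p = 0.000239), or -1.11 with values below the dim-gene value raised to it. Cnksr3, a scaffold of aldosterone-dependent sodium transport, differed by 0.10 (unadjusted p = 0.47) in cortex and by 1.73 in striatum (adjusted p = 6.01e-05 for the difference between regions). The membrane protein gene Cemip2 differed by 0.21 in cortex and 1.35 in striatum (adjusted p = 0.011), and Nfasc, the adhesion molecule of the node of Ranvier, by 0.15 and 0.88 (adjusted p = 0.0347). Marcksl1, an actin-binding substrate of protein kinase C, had opposite signs, -0.29 in cortex and 0.66 in striatum (adjusted p = 0.0485). Between cortex and midbrain no gene passed (0%), with 583 at an unadjusted p under 0.05 in limma. The fit has no term for animals, and with a replicate block across regions the counts stayed at 7 and 0. The 3 smallest p were those of Mlip (0.04 in cortex and -0.71 in midbrain), Ebf3 (-0.08 and 0.76) and the glycine receptor subunit Glrb (-0.05 and 0.62), with adjusted p of 0.27 or more. Without saline midbrain replicate 1 the count was 10, and without saline midbrain replicate 2 it was 3.

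**Figure D5:**
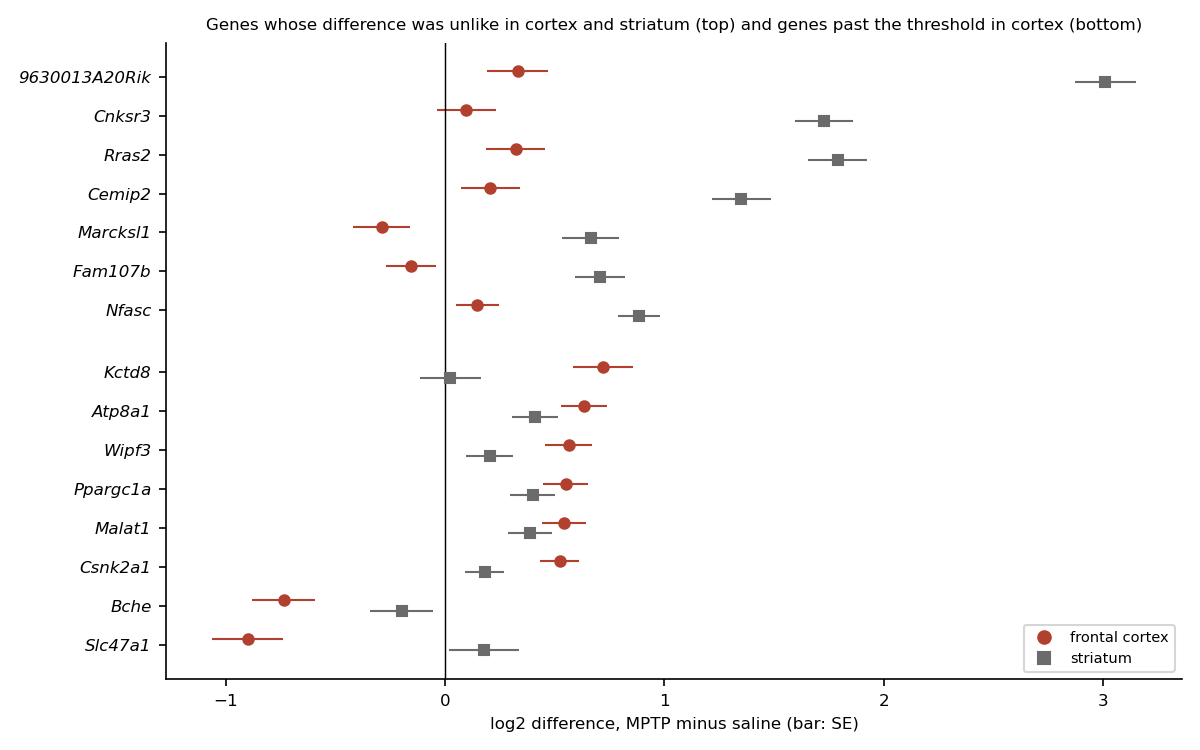
Log2 difference, MPTP minus saline, in frontal cortex (circles) and striatum (squares), with SE. The top 7 genes are those whose response differed between the regions, with cortical values between -0.29 and 0.33, and the lower 8 are those past the threshold in cortex, of which 3 passed in striatum too.

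Of the 8 cortical genes, Atp8a1 (0.41), Malat1 (0.39) and Ppargc1a (0.40) were also called higher in striatum, and Bche was called lower in midbrain (-0.75, adjusted p = 0.00942). Slc47a1 differed by 0.18 in striatum and -0.27 in midbrain, neither called, and Kctd8 by 0.03 and 0.08. None of the 8 was among the genes whose response differed between cortex and another region. In the reverse direction, 126 of the 152 genes called higher in striatum were higher in cortex too, 45 of them with an unadjusted p under 0.05, and their median was 0.14 in cortex against 0.50 in striatum. Of 253 genes called higher in midbrain 237 were higher in cortex and 52 had an unadjusted p under 0.05, with medians of 0.13 in cortex and 0.48 in midbrain. Of all tested genes 7507 were higher in cortex and 4198 lower. Of 95 genes called lower in striatum 69 were lower in cortex, with a cortical median of -0.06, and of 45 called lower in midbrain 38 were, with a median of -0.10, against 0.04 over all tested genes. If the regions share animals, as 3 animals per treatment imply, these counts are not independent of the array-to-array pattern of Lcn2, Vwf, Arc and Fos.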

How the data were processed

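Total RNA of each sample was hybridised to 1 Affymetrix mouse array. The authors deposited RMA values on the log2 scale, 1 per probe set and array. RMA is named in the submitters' processing notes, and its version is not given in the sources used here. This method brings the arrays to one distribution before probes are summarised, so a shift of all genes may not be seen. The deposited probe set values did not share exactly one distribution, with array medians of 5.14 to 5.21 and interquartile ranges of 3.37 to 3.65. Of 45101 probe sets 34958 named 1 gene, which gave 18194 genes. Genes whose mean in at least 1 region reached the 50th percentile of probe set means (5.1953, the dim-gene value) were tested, 11710 in all. No detection call was used.

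A model of 6 group means over the 18 arrays was fitted in limma 3.58.1 (R 4.3.3), with the prior variance following intensity. Benjamini-Hochberg adjustment ran over the 11710 genes of a contrast. The 12 residual degrees of freedom became 23.2 after moderation, and the procedure was tested on simulated data. With 3 arrays a group, precision is limited by their number.

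Genes named were the 10 of smallest p in cortex, the 6 called genes of smallest p per difference between regions (3 if none was called) and up to 4 members of each of 47 gene lists, called ones first, then by size of difference. Gfap, Ppargc1a, Atp8a1, Malat1, Drd1 and Maob were always named, and predicted genes passed over. Members, lists and rules were chosen with earlier results of these data known. Of 1332 list entries 1207 were on the array. Genes named outside this rule beside their lists were chosen after their values were seen. List medians and counts with an array left out or another scaling, distances from the dim-gene value and a replicate block across regions were added after seeing the data. Alternatives varied the filter, scaling, probe sets, variance model, weights, arrays fitted and replicate block.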

Additional observations from a re-analysis of the deposited data

Results flagged for a closer look

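For 7 genes the difference between MPTP and saline in frontal cortex was itself different from that in striatum (limma interaction contrast, adjusted p under 0.05). Cortex minus striatum was -1.47 for Rras2, -1.63 for Cnksr3, -1.15 for Cemip2, -0.95 for Marcksl1, -0.86 for Fam107b and -0.74 for Nfasc. A fitted -2.68 was that of 9630013A20Rik, a predicted gene that was passed over by the naming rule and is named here after its values were seen (adjusted p = 1.87e-08). It measured 4.22, 4.06 and 3.95 in MPTP cortex and 3.62, 3.94 and 3.67 in saline cortex, all below the dim-gene value, against 7.39, 7.33 and 7.01 in MPTP striatum and 4.15, 4.42 and 4.14 in saline striatum, the saline ones also below it. With values below the dim-gene value raised to it, cortex minus striatum was -2.05 for 9630013A20Rik and -1.11 for Rras2, whose saline striatal values were below it as well. Fam107b stood at 5.95, 5.94 and 5.77 in MPTP cortex, against 6.04, 6.19 and 5.90 in saline cortex, a difference of -0.16, against 0.71 in striatum. All 7 genes were called higher in striatum, and none of them passed in cortex.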

How the results depend on the processing

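None of the 8 called genes changed sign under any setting run, which refits of the same arrays make likely, so it adds no support to the calls. Values were recomputed for named genes and for the medians of the microglial, pericyte and cholesterol lists. Of these, 3549 kept their call or lack of one (for a median, its sign), 86 lost a call, 16 gained one and 11 changed sign. Changes of sign smaller than 1 SE were counted as kept. All 86 losses were among the 8 called genes, 47 of them with 1 array left out. Most of the values that were kept belong to genes not called in the first place. Below the threshold values moved more freely. For 111 of the 196 named genes the difference moved over 1.5 times or changed sign without 1 of the arrays, and of 71 uncalled ones with an unadjusted p under 0.05, 52 lost it without at least 1 array. The number of cortical calls, 8, was 5 with a filter at the 75th percentile, all among the 8. It was 4 with quantile normalization a second time (2 of them among the 8) and 2, both higher, with arrays centred on their medians. With the mean over probe sets it was 2 (1 of them among the 8). Array weights gave 14 and the cortical arrays alone 36. Without the intensity trend the number was 0 (730 genes at an unadjusted p under 0.05). It was also 0 with the interquartile range as a covariate (799). Leaving out 1 array gave 0 to 1. Between cortex and striatum the number called, 7, was 4 without a filter and 0 at the 75th percentile (645 at an unadjusted p under 0.05). It was 21 with the second quantile normalization, 4 with the mean over probe sets (3 of them among the 7) and 24 with array weights. With the covariate it was 24, with both regions alone 13, and with 1 array left out 3 to 10. Between cortex and midbrain, 0 genes became 1 with array weights and 0 to 10 with 1 array left out, 10 without saline midbrain replicate 1 and 3 without replicate 2. The causes were not tested, beyond the fewer genes or arrays that a setting keeps. With a replicate block within each region 14 cortical genes were called, 7 of them among the 8, and 12 differed between cortex and striatum. The numbers did not pair MPTP with saline cortical arrays, whose deviations correlated at -0.19, -0.08 and 0.23. Across regions the same-numbered MPTP arrays all correlated positively, at 0.0028 to 0.18, and differently numbered ones at -0.21 to 0.08. Same-numbered saline arrays of cortex and midbrain correlated at 0.22, 0.34 and 0.25, and those in pairs with striatum at -0.23 to 0.14. Differently numbered saline arrays correlated at -0.27 to 0.30. A replicate block across regions, added after seeing the data, had a consensus correlation of 0.0058 and left 8, 7 and 0 calls. Among the cortical calls, Slc47a1, Bche and Kctd8 have values below the dim-gene value.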

Other observations

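Single saline arrays of cortex stood apart for Ttr, Calb2 and Th, and the part of tissue boundaries in this was not tested. Ttr, the transthyretin gene of the choroid plexus, measured 4.02, 3.97 and 4.22 in MPTP cortex and 4.12, 4.96 and 6.16 in saline cortex. All MPTP values and 2 saline values of Ttr lay below the dim-gene value. The other probe sets of Ttr gave differences of 0.07, -0.18 and -0.12, the first with a cortical mean of 5.63. Calb2, the calretinin gene of a set of interneurons and of thalamic relay neurons, measured 7.08, 7.47 and 7.05 in MPTP cortex and 8.75, 6.86 and 7.01 in saline cortex, with saline replicate 1 the high one. Th, the dopamine-synthesis enzyme, measured 4.65, 5.36 and 4.67 in MPTP cortex and 6.28, 4.81 and 4.44 in saline cortex, and the same saline array was high. None of the 3 genes passed in cortex, at differences of -1.01, -0.34 and -0.29.

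Probe sets that do not name a single gene were also fitted. Of 3183 above the dim-gene value, 4 were called higher in MPTP cortex and 0 lower (227 higher and 62 lower at an unadjusted p under 0.05), adjusted over 23898 probe sets. Probe set 1453451_at measured 6.59, 6.26 and 6.22 in MPTP cortex, against 5.63, 5.33 and 5.65 in saline cortex, a limma difference of 0.82 (SE 0.15, adjusted p = 0.0238). Probe set 1433203_at measured 5.37, 5.46 and 5.40 in MPTP cortex, against 4.64, 4.80 and 4.86 in saline cortex, a difference of 0.64 (SE 0.12, adjusted p = 0.0393).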
